A study of Mus musculus with 5 samples.

Results

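The expression of 33 genes of protein folding and quality control in the endoplasmic reticulum (ER) was compared between 4T1 cells with TAZ (wild type, WT) and without it (TAZ-KO). The members were chosen by gene symbol, as known ER chaperones and their cofactors, oxidoreductases, factors of ER-associated degradation (ERAD), translocon subunits and stress sensors, and all 33 were among the 13143 genes of the deposited count table and the 11975 genes tested. 4T1 is a mouse mammary carcinoma line with a tetraploid genome, and the question was which genes differ in the tumour cells themselves when TAZ, a transcriptional coactivator of the Hippo pathway encoded by Wwtr1, is lost. Each of the 5 libraries came from 1 single-cell clone grown in culture without treatment, with 3 WT clones and 2 TAZ-KO clones. Every clone descended from cells that carried Cas9 and had been selected with blasticidin. According to the study's methods, the TAZ-KO clones came from a single Cas9 clone that also received a lentivirus with a guide against Wwtr1 and was selected with puromycin, and both carry the same guide. The WT clones received neither guide nor puromycin, so the effects of the vector, the selection, the founder clone and TAZ loss cannot be told apart. The names of both TAZ-KO columns in the table contain YAP, while titles and genotypes say TAZ knockout, and the groups here follow the latter.

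The ER is where secreted and membrane proteins enter the secretory route, through the SEC61 channel, and where they are folded, glycosylated and joined by disulfide bonds. The HSP70 chaperone BiP, the HSP90 chaperone GRP94, the lectins calnexin and calreticulin and the protein disulfide isomerases do most of this work, and proteins that fail to fold are pulled back to the cytosol and degraded, the process called ERAD. When unfolded proteins build up, the sensors ATF6, IRE1 and PERK start the unfolded protein response, in which ATF6 and the spliced form of XBP1 bind ER stress response elements (ERSE) in the promoters of chaperone and ERAD genes. Secretory and tumour cells depend on this system. Gene counts hold transcript levels only, so XBP1 splicing, ATF6 cleavage, sensor phosphorylation and protein levels cannot be read from them.

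Promoters were examined for the elements through which this response is known to act. Windows from 250 bases before to 50 bases after the start of a RefSeq transcript (GRCm38.p6) were found for 27 of the 33 members, the others being Hyou1, Manf, Derl1, Sec61a1, Ssr2 and Atf6. The ERSE was searched for on both strands as CCAAT, any 9 bases and CCACG. It was present in 8 of the 27 members (29.6%), against 37 of the 27025 genes with a window (0.137%) and 15 of the 9098 of these that were tested (0.165%). The members were chosen as genes of the kind in whose promoters this element is known, so the larger share is only a description. The 3 windows printed here belong to the central chaperones Hspa5, Calr and Hsp90b1, with the CCAAT and CCACG parts in capitals, read in the direction of the gene, so that an element on the opposite strand appears as CGTGG followed by ATTGG.
Hspa5, chr2:34771840-34772139, plus strand: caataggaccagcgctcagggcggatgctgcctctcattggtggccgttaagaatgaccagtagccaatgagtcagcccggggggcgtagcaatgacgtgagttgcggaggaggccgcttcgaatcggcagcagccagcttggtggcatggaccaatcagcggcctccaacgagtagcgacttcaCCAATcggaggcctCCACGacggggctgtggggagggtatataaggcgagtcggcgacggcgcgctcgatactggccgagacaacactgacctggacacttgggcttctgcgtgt
Calr, chr8:84846882-84847181, minus strand: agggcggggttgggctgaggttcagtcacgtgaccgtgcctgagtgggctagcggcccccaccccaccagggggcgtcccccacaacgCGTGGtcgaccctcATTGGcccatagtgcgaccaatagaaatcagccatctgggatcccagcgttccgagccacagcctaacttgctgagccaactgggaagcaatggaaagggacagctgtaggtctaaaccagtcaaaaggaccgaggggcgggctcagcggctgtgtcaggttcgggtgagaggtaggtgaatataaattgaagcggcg
Hsp90b1, chr10:86705395-86705694, minus strand: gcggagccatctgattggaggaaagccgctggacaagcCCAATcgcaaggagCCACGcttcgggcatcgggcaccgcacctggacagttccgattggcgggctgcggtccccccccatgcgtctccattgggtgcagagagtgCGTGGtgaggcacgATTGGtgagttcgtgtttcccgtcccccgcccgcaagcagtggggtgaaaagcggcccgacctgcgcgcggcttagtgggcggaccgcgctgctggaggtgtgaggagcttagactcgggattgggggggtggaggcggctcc
Hspa5 held 1 element in the direction of the gene, Calr held 1 on the opposite strand, and Hsp90b1 held 1 on each strand. The following sites, each read on the strand that carries the element, show how the spacer differs between members while the outer parts are the same.
Hspa5, chr2:34772025-34772043: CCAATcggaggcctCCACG
Hsp90b1, chr10:86705533-86705551: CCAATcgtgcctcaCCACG
Hsp90b1, chr10:86705638-86705656: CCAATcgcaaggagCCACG
Calr, chr8:84847075-84847093: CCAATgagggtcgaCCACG
Canx, chr11:50325800-50325818: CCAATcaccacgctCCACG
Pdia6, chr12:17266491-17266509: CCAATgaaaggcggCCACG
Creld2, chr15:88819520-88819538: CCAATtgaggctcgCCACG
Dnajc3, chr14:118937827-118937845: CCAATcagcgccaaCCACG
Syvn1, chr19:6046532-6046550: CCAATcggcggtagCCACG
The first base of these elements in the direction of the gene lay between 212 bases (Hsp90b1) and 44 bases (Syvn1) before the start. A shorter element, ERSE-II, searched for as ATTGG, any 1 base and CCACG, was present in 2 members (7.41%) and in 0.0444% of all genes with a window.
Herpud1, chr8:94386377-94386387: ATTGGgCCACG
Dnajb11, chr16:22857852-22857862: ATTGGcCCACG
The element known to bind XBP1, searched for as TGACGTGG, was in the windows of none of the 27 members and in 0.714% of all genes with a window. No member held both ERSE and ERSE-II, although both end in CCACG. A match is a description of these letters, and binding was not measured.

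Levels are given in CPM, the counts of a gene relative to the TMM-scaled total of its library. Values of single clones are given in the order of the clone numbers, and group means with their SD (n = 3 in WT, n = 2 in TAZ-KO). The log2 fold changes (TAZ-KO over WT) come from edgeR's quasi-likelihood test with Benjamini-Hochberg adjustment over all genes tested. The libraries held 14695384 to 16452147 counts, so that 3 counts corresponded to 0.184 to 0.203 CPM. The lowest member, Sec61g, lay at 3.02 to 5.47 CPM, and 31 members had more than 20 CPM in every library. Wwtr1 was lower in both TAZ-KO clones (129 and 152 CPM) than in any WT clone (312 to 659.7 CPM), and Yap1, the paralogue that the column names could point to, was at 160.3 and 234 CPM against 182 to 232 CPM. WT clone 1 stood apart from the other WT clones. The Pearson correlation of log2 CPM across the 11975 genes, which are not independent, was 0.92 between WT clone 1 and each other WT clone, 0.95 with each TAZ-KO clone, and 0.99 between WT clones 2 and 3. The 7 epithelial markers listed were all in the table and summed to 1739 to 3927 CPM in WT and 2911 and 3003 CPM in TAZ-KO, with Krt18 the highest of them in every library. They did not share a direction. Krt19 lay above the WT range in both TAZ-KO clones (14.3% of the 7, against 18.7% of all tested genes). Cldn7 lay below it (14.3%, against 18.6%), at 2.53 to 3.73 CPM in WT and 0.859 and 0.267 CPM in TAZ-KO, and the other 5 overlapped. Markers of other cells had lower sums, with 4 of 7 fibroblast markers in the table at 30.2 to 122 CPM in WT and 90.5 and 92.2 CPM in TAZ-KO, nearly all Pdgfra. The 5 of 7 leukocyte markers summed to 17.2 to 32.1 CPM in WT and 11.1 and 11.4 CPM in TAZ-KO, mostly Cd68, with Ptprc (CD45) at 0 to 0.543 CPM, and the endothelial and erythroid markers found (2 of 5 and 1 of 3) summed to under 2 CPM in every library. The part of these markers in the results on the members was not tested.

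Most ER chaperones were higher in the TAZ-KO clones, while Hspa5 and Derl1 were lower. None of the 33 members passed edgeR's test at an adjusted p of 0.05, a threshold that 6 of the 11975 genes passed (0.0501%). At an unadjusted p under 0.05, 12 members were higher (36.4%, against 7.94% of all tested genes) and 2 were lower (6.06%, against 9.41%). The TAZ-KO values were both above the WT range in 16 members (48.5%, against 18.7% of all tested genes) and both below it in 2 (6.06%, against 18.6%), and the groups overlapped in 15. The fold change was above 0 in 26 members and below 0 in 7, and its median over the members was 0.40 on the log2 scale, against -0.03 over all tested genes. An exact permutation test of 3 clones against 2 cannot give a p under 0.1, so none is given for single genes.

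**Figure D1:**
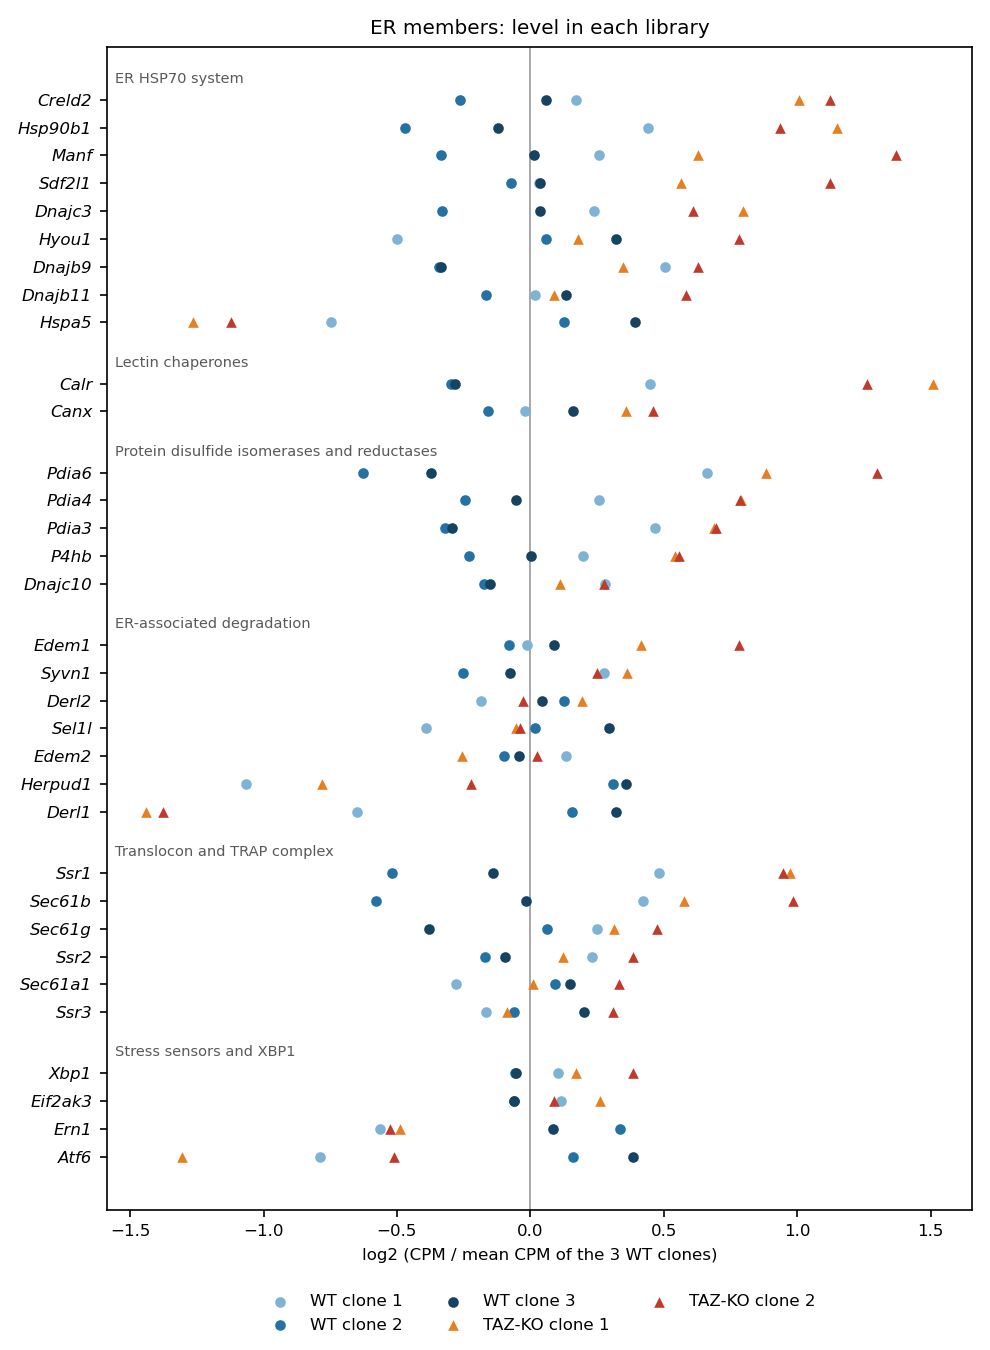
Level of each of the 33 members in each library, as log2 of its CPM over the mean CPM of the 3 WT clones, with members grouped by role and points for the 5 clones. Both TAZ-KO clones lie to the right of every WT clone in 16 members and to the left in 2, Hspa5 and Derl1.

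Hspa5 encodes BiP, the HSP70 of the ER lumen, which holds unfolded chains and keeps the stress sensors inactive. Hspa5 (chromosome 2, 34771970 to 34777547, plus strand, GRCm38) was at 1265, 2315 and 2785 CPM in the WT group and at 884 and 974 CPM in the TAZ-KO group. Neither TAZ-KO value reached the WT range, and WT clone 1 lay between the TAZ-KO clones and the other WT clones. The means were 2122 ± 779 CPM in WT and 929 ± 63.6 CPM in TAZ-KO, with a log2 fold change of -1.19 (SE 0.38) and an adjusted p of 0.235 in edgeR, short of the threshold. These are bulk cultures, in which fewer cells with a transcript and less of it per cell cannot be told apart.

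The partner chaperone and most cofactors of BiP had the opposite sign. Hsp90b1, which encodes GRP94, the HSP90 of the ER (chromosome 10, 86690209 to 86705509, minus strand, GRCm38), was at 1089.8, 579.8 and 738 CPM in the WT group and at 1782 and 1535 CPM in the TAZ-KO group. WT clone 1 was the highest WT clone and still below both TAZ-KO clones. Its log2 fold change was 1.05 (SE 0.32), with an adjusted p of 0.224 in edgeR. Part of its exons overlap those of 1810014B01Rik on the other strand, and whether counting used strand is not stated in the methods or labels.

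Creld2, an ER stress-inducible protein with disulfide isomerase activity (chromosome 15, 88819646 to 88826683, plus strand, GRCm38), was at 36.3, 26.9 and 33.6 CPM in the WT group and at 64.8 and 70.2 CPM in the TAZ-KO group. The clones of each group lay close together and far from those of the other group, with means of 32.3 ± 4.85 CPM in WT and 67.5 ± 3.78 CPM in TAZ-KO. Its log2 fold change was 1.07 (SE 0.21), and its unadjusted p of 0.00200 in the edgeR fit was the smallest of the members (adjusted p = 0.141). Manf, a secreted and ER-resident factor that binds BiP, was at 172, 114 and 146 CPM in the WT group and at 222 and 372 CPM in the TAZ-KO group. TAZ-KO clone 2 was the highest, TAZ-KO clone 1 lay nearer to the WT range, and the groups did not overlap (log2 fold change 1.05 (SE 0.30), adjusted p = 0.214 in edgeR). The exons of Manf overlap those of Rbm15b on the same strand, so reads of these genes may not be separable.

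Dnajc3 encodes the J protein p58IPK, which delivers clients to BiP. It was at 107, 71.9 and 92.8 CPM in the WT group and at 157 and 138 CPM in the TAZ-KO group. The TAZ-KO values did not overlap those of WT, with a log2 fold change of 0.71 (SE 0.23) and an adjusted p of 0.236 in edgeR. Sdf2l1, which forms a complex with the J protein of Dnajb11, was at 14.4, 13.4 and 14.4 CPM in the WT group and at 20.8 and 30.6 CPM in the TAZ-KO group. The WT clones were nearly equal for Sdf2l1, both TAZ-KO clones lay above them, and TAZ-KO clone 2 lay farther away (log2 fold change 0.87 (SE 0.26), adjusted p = 0.223 in edgeR).

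The remaining members of the HSP70 system overlapped between the groups. Hyou1, the large HSP70 that acts as a nucleotide exchange factor of BiP, ranged over 125 to 221 CPM in WT and 200.4 and 304 CPM in TAZ-KO. Dnajb9 (ERdj4), a J protein that directs BiP to IRE1 and to ERAD clients, was at 23.4 to 42.1 CPM in WT and 37.7 and 45.8 CPM in TAZ-KO, with WT clone 1 inside the TAZ-KO range. Dnajb11 (ERdj3), a J protein that binds nascent clients, was at 58.6 to 72.3 CPM in WT and 70.1 and 98.7 CPM in TAZ-KO. In all 3 genes the mean was higher in TAZ-KO, with log2 fold changes of 0.51, 0.49 and 0.36 and edgeR adjusted p of 0.419, 0.444 and 0.434.

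The lectin chaperones calreticulin and calnexin hold glycoproteins with a trimmed sugar until they are folded. Calr (chromosome 8, 84841850 to 84846934, minus strand, GRCm38), the soluble lectin that also binds calcium, was at 735, 439 and 444 CPM in the WT group and at 1533 and 1293 CPM in the TAZ-KO group. Both TAZ-KO clones were above every WT clone, and WT clone 1 was the highest of the WT clones. The means of Calr were 539 ± 169.7 CPM in WT and 1413 ± 169.7 CPM in TAZ-KO, and its log2 fold change of 1.39 (SE 0.30), with an adjusted p of 0.151 in edgeR, was the most positive of the 33 members. Canx, the membrane-bound lectin, was at 572 to 714 CPM in WT and 819 and 878 CPM in TAZ-KO. Its groups did not overlap either, with a smaller log2 fold change of 0.41 (SE 0.22) and an adjusted p of 0.362 in edgeR.

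Disulfide isomerases make and reshuffle the disulfide bonds of ER clients. Of the 5 members of this kind, 4 were above every WT clone in both TAZ-KO clones (80.0%, against 18.7% of all tested genes), and 3 were higher at an unadjusted p under 0.05 (60.0%, against 7.94%). Pdia6 was at 529, 217 and 258 CPM in the WT group and at 618 and 823 CPM in the TAZ-KO group. WT clone 1 was far above the other WT clones and near TAZ-KO clone 1, with both TAZ-KO values above it (log2 fold change 1.11 (SE 0.41), adjusted p = 0.268 in edgeR).

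Pdia4, which has an additional thioredoxin-like domain, was at 124, 87.4 and 99.7 CPM in the WT group and at 179 and 179 CPM in the TAZ-KO group. The TAZ-KO clones were equal to 3 digits and above the WT range (log2 fold change 0.79 (SE 0.22), adjusted p = 0.212 in edgeR). P4hb, which encodes the classical isomerase PDI, also a subunit of prolyl 4-hydroxylase, was at 717, 533 and 627 CPM in the WT group and at 911 and 920.5 CPM in the TAZ-KO group. Its groups did not overlap (log2 fold change 0.55 (SE 0.23), adjusted p = 0.287 in edgeR). Pdia3 (ERp57), the partner of the lectins, was at 477 to 824 CPM in WT and 959.7 and 966 CPM in TAZ-KO without overlap. Its highest WT value was that of WT clone 1, and its log2 fold change was 0.69 (SE 0.30) with an adjusted p of 0.306 in edgeR. Dnajc10 (ERdj5), a reductase that opens disulfide bonds before ERAD, overlapped between the groups at 125 to 172 CPM in WT and 153 and 171 CPM in TAZ-KO. The exons of Pdia3 and Pdia6 overlap those of Catsper2 and Atp6v1c2 on the other strand.

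ERAD factors did not share a direction. Of 7 members, 3 had a fold change above 0 and 4 below 0, and the median was -0.05 on the log2 scale. Derl1, which encodes Derlin-1, a membrane protein of the channel through which ERAD clients leave the ER (chromosome 15, 57869502 to 57892448, minus strand, GRCm38), was at 145, 254 and 285 CPM in the WT group and at 83.9 and 87.7 CPM in the TAZ-KO group. The TAZ-KO values lay far below the WT range and close to each other, with means of 228 ± 73.2 CPM in WT and 85.8 ± 2.63 CPM in TAZ-KO. Its log2 fold change of -1.41 (SE 0.33) was the most negative of the members, with an adjusted p of 0.165 in edgeR. Its paralogue Derl2, by contrast, was at 47.9 to 59.4 CPM in WT and 53.4 and 62.3 CPM in TAZ-KO, which overlap, with a log2 fold change of 0.09 (SE 0.20).

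Edem1, a lectin that recognises mannose-trimmed glycoproteins and passes them to ERAD, was at 54.8, 52.3 and 58.8 CPM in the WT group and at 73.8 and 95.1 CPM in the TAZ-KO group. Both TAZ-KO clones lay above the narrow WT range, with a log2 fold change of 0.61 (SE 0.20) and an adjusted p of 0.238 in edgeR. Its relative Edem2, the mannosidase that starts the trimming, was at 34.5 to 40.6 CPM in WT and 31.0 and 37.6 CPM in TAZ-KO and overlapped. The core ligase Syvn1 (HRD1) was at 56.3 to 81.3 CPM in WT and 79.7 and 86.3 CPM in TAZ-KO, and its partner Sel1l, which steadies the ligase, was at 109 to 175 CPM in WT and 138 and 139 CPM in TAZ-KO. Neither was separated by genotype, with log2 fold changes of 0.31 (SE 0.22) and -0.05 (SE 0.25). Herpud1, which joins the ligase complex under stress, was at 64.2 to 172 CPM in WT and 78.1 and 115 CPM in TAZ-KO. WT clone 1, at 64.2 CPM, lay below both TAZ-KO clones, while WT clones 2 and 3 lay above them (log2 fold change -0.48 (SE 0.45)).

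At the channel through which proteins enter the ER, 3 of 6 members lay above the WT range in both TAZ-KO clones (50%, against 18.7% of all tested genes) and none below it (against 18.6%). Sec61b, a small subunit of the SEC61 channel, was at 41.0, 20.4 and 30.2 CPM in the WT group and at 45.5 and 60.4 CPM in the TAZ-KO group. The groups did not overlap, although WT clone 1 came close to TAZ-KO clone 1 (log2 fold change 0.79 (SE 0.33), adjusted p = 0.287 in edgeR). Ssr1, a subunit of the TRAP complex that assists the channel, was at 251, 126 and 163 CPM in the WT group and at 353 and 347 CPM in the TAZ-KO group. Both TAZ-KO clones were nearly equal and above the WT range (log2 fold change 0.96 (SE 0.31), adjusted p = 0.236 in edgeR). Sec61g, another small subunit of the channel, was low, at 3.02 to 4.68 CPM in WT and 4.89 and 5.47 CPM in TAZ-KO, without overlap (log2 fold change 0.40 (SE 0.36)). Its separation rested on few counts, with 69 in WT clone 1 and 74 in TAZ-KO clone 1. The pore subunit Sec61a1 at 159.8 to 215 CPM in WT and 195 and 244 CPM in TAZ-KO, and the TRAP subunits Ssr2 at 199 to 264 CPM in WT and 244 and 293 CPM in TAZ-KO and Ssr3 at 615 to 794 CPM in WT and 649 and 856 CPM in TAZ-KO, overlapped between the groups. Their log2 fold changes were 0.18, 0.26 and 0.12.

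The transcripts of the sensors and of Xbp1 had no member with an unadjusted p under 0.05. Atf6, the sensor that is cut in the Golgi to release a transcription factor, was at 194, 373 and 437 CPM in the WT group and at 135 and 235 CPM in the TAZ-KO group. WT clone 1 lay between the TAZ-KO clones, and the groups overlapped (log2 fold change -0.85 (SE 0.42), adjusted p = 0.340 in edgeR). Ern1, which encodes IRE1, the kinase and nuclease that splices Xbp1 mRNA, was at 71.5, 133 and 112 CPM in the WT group and at 75.3 and 73.3 CPM in the TAZ-KO group. WT clone 1 was the lowest of all 5, just below both TAZ-KO values (log2 fold change -0.51 (SE 0.29), adjusted p = 0.399 in edgeR).

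Eif2ak3, which encodes PERK, the kinase that slows translation, was at 22.9, 20.2 and 20.2 CPM in the WT group and at 25.3 and 22.4 CPM in the TAZ-KO group. The 5 values lay close together, and the groups overlapped (log2 fold change 0.18 (SE 0.22), adjusted p = 0.685 in edgeR). Xbp1 was at 140.0, 125 and 125 CPM in the WT group and at 147 and 170.2 CPM in the TAZ-KO group. The TAZ-KO values were above the WT range by a small margin (log2 fold change 0.28 (SE 0.19), adjusted p = 0.455 in edgeR).

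The number of members that passed a test differed with and without WT clone 1 and between methods. It was the WT clone nearest to the TAZ-KO mean in 23 of 33 members (69.7%), against 57.1% of all tested genes. With WT clone 1 left out, edgeR called 15 members higher (45.5%, against 19.1% of 11871 genes) and 5 lower (15.2%, against 19.7%). Every member with an unadjusted p under 0.05 in the fit of 5 libraries was among these 20. Calr was then at a log2 fold change of 1.68 (edgeR adjusted p = 0.000832), Hsp90b1 at 1.33 (0.00281), Hspa5 at -1.45 (0.00185) and Derl1 at -1.65 (0.000519). The lower members without that clone also included Herpud1 (-0.81, edgeR adjusted p = 0.0171), Atf6 (-1.13, adjusted p = 0.0124) and Ern1 (-0.72, adjusted p = 0.0106), which overlapped in the full set. Xbp1 (0.34, edgeR adjusted p = 0.116) and Eif2ak3 (0.24, adjusted p = 0.349) were not called without it. Leaving out WT clone 2 or WT clone 3 gave 0 members called, but also 0 of all genes tested (11806 and 11846). With all 5 libraries, DESeq2 called Calr, Creld2 and Hsp90b1 higher and Hspa5 and Derl1 lower, 5 of 33 members (15.2%) against 5.25% of 13139 genes. The DESeq2 adjusted p of Hspa5 and Hsp90b1 were 0.0488 and 0.0491, and those of Calr, Creld2 and Derl1 were 0.00225, 0.00399 and 0.00598. An edgeR fit with 1 surrogate variable called Calr, Creld2 and Derl1, 3 of 33 (9.09%) against 4.17% of all genes tested.

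**Figure D2:**
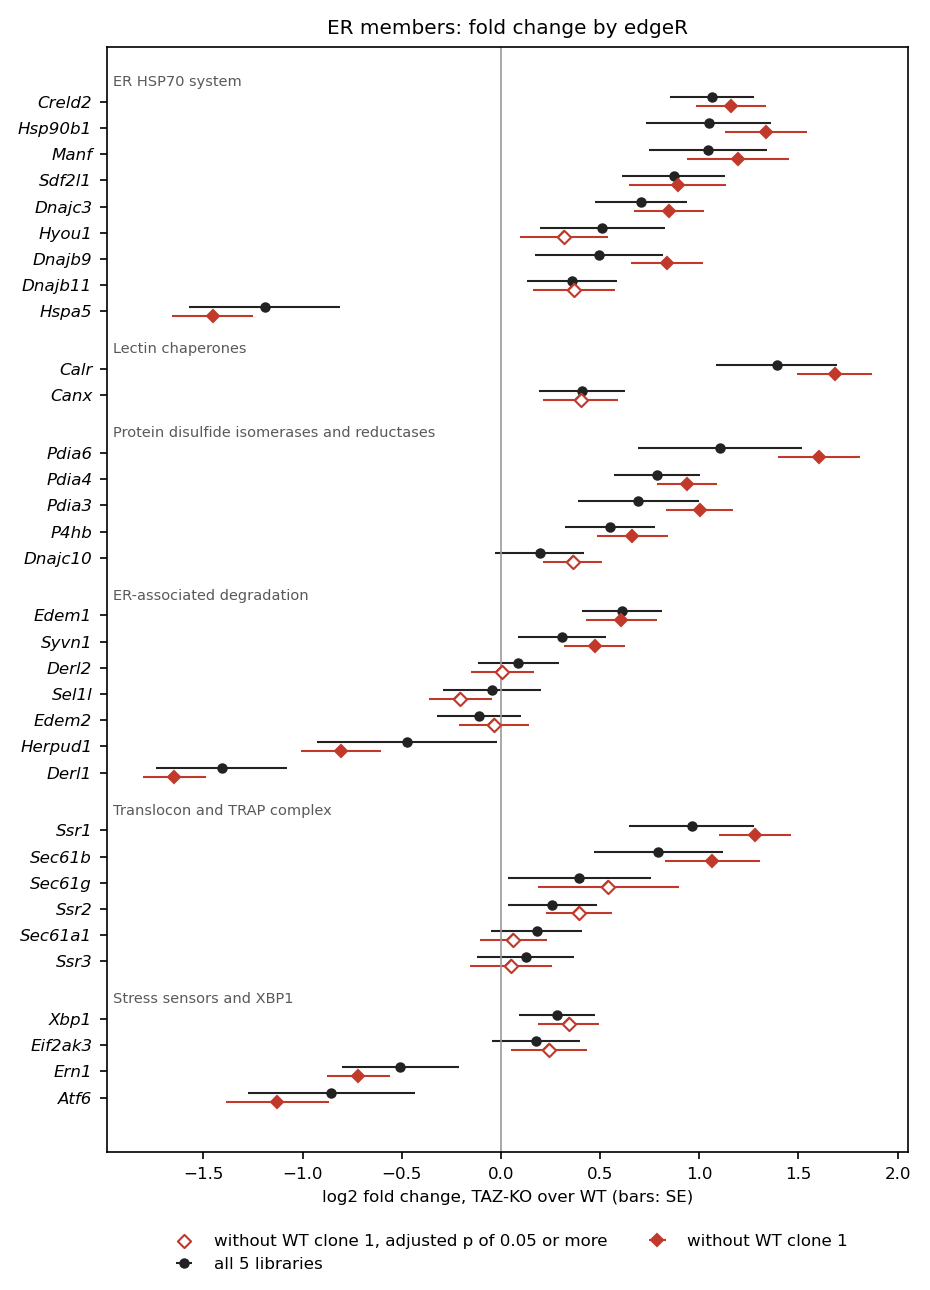
log2 fold change (TAZ-KO over WT, edgeR) with its SE for each of the 33 members. Circles are from all 5 libraries and diamonds from the fit without WT clone 1. Open diamonds mark an adjusted p of 0.05 or more, and 20 diamonds are filled. Circles are filled whatever their adjusted p, and no member had an adjusted p under 0.05 with all 5 libraries.

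Because Hspa5 had the opposite sign, the ratio of other chaperones to Hspa5 differed more between the groups than each gene alone, and it does not depend on how libraries are scaled. The ratio was computed after the values had been seen, only for members that lay above the WT range in both TAZ-KO clones, and is given without a test. Hspa5 lay below that range, so the separation of the groups in these ratios follows from the choice of genes. Counts of Hsp90b1 over those of Hspa5 were 0.862, 0.250 and 0.265 in WT against 2.02 and 1.58 in TAZ-KO. The counts of Hsp90b1 thus exceeded those of Hspa5 in the TAZ-KO clones and stayed below them in every WT clone, a 4.63-fold difference between the geometric means. Counts of Calr over Hspa5 were 0.581, 0.190 and 0.159 in WT against 1.73 and 1.33 in TAZ-KO, a 5.84-fold difference. Pdia6 over Hspa5 was 0.419, 0.0938 and 0.0928 in WT against 0.699 and 0.846 in TAZ-KO, a 5.0-fold difference. WT clone 1 lay between the other WT clones and the TAZ-KO clones in each of these ratios. For Creld2 over Hspa5 the values were 0.0287, 0.0116 and 0.0121 in WT against 0.0734 and 0.0721 in TAZ-KO, and for Manf over Hspa5 they were 0.136, 0.0494 and 0.0523 in WT against 0.252 and 0.382 in TAZ-KO. The difference was 4.57-fold for Creld2, 4.39-fold for Manf, 4.40-fold for Ssr1, 3.78-fold for Pdia4 and 3.58-fold for Dnajc3. Whether counts depend on gene length here is not settled by the sources, which name different protocols. These ratios therefore compare libraries and not the levels of genes.

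**Figure D3:**
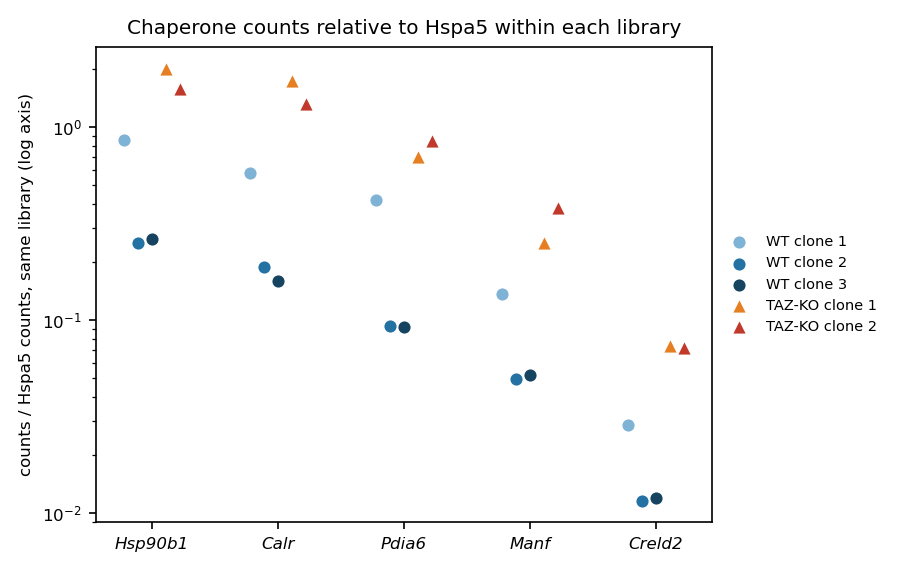
Counts of Hsp90b1, Calr, Pdia6, Manf and Creld2 divided by the counts of Hspa5 in the same library, on a log axis, for the 3 WT and 2 TAZ-KO clones. In each of the 5 ratios both TAZ-KO clones lie above every WT clone, which follows from the choice of genes, and WT clone 1 lies above WT clones 2 and 3.

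The members with an ERSE in the promoter window included both the higher chaperones and Hspa5. Of the 8, 7 had a fold change above 0 and 1, Hspa5, below 0, with a median of 0.88 on the log2 scale. Both TAZ-KO clones were above every WT clone in 6 of them (Calr, Canx, Creld2, Dnajc3, Hsp90b1 and Pdia6; this holds for 18.7% of all tested genes), below in Hspa5, and overlapping in Syvn1. Of the 19 members with a window and no ERSE, 15 had a fold change above 0 and 4 below 0, with a median of 0.36, and 9 lay above every WT clone. The 7 other tested genes with an ERSE ranged from -0.28 (Zfp57) to 1.14 (Adcy3), and of these Adcy3 alone had groups that did not overlap.

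The lower level of Derl1 was shared by its chromosomal neighbours. Within 5 Mb on either side of its start, a distance chosen after the values had been seen, 30 other genes were tested, and 24 had a fold change below 0. Their median log2 level relative to the WT mean was -1.02 in TAZ-KO clone 1, -0.72 in TAZ-KO clone 2 and -0.04 in WT clone 1. The whole of chromosome 15 had medians of -0.06 and -0.11 in the TAZ-KO clones. Of the 30 neighbours, 15 lay below every WT clone in both TAZ-KO clones (50%, against 18.6% of all tested genes) and 4 lay above (13.3%, against 18.7%). In the order of fold changes from the lowest, Derl1 was 10th of these 31 genes. Among the neighbours were Rnf139, an ER-resident ubiquitin ligase (log2 fold change -1.43), and Myc (-1.91). Relative to the WT mean, WT clone 1 was at -0.59 for Derl1, -1.28 for Myc and 0.11 for Rnf139. The lower levels did not end at the window, with log2 fold changes of -1.21 for Asap1 and -2.05 for Ndrg1 beyond its far end. Beyond its near end, Eif3h was at -0.51 and Rad21 at 0.03. Creld2, the other member on chromosome 15, lay outside this window, and its own neighbours had a median log2 fold change of 0.05. Gene dosage was not measured, and the part of the position in the level of Derl1 was not tested.

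**Figure D4:**
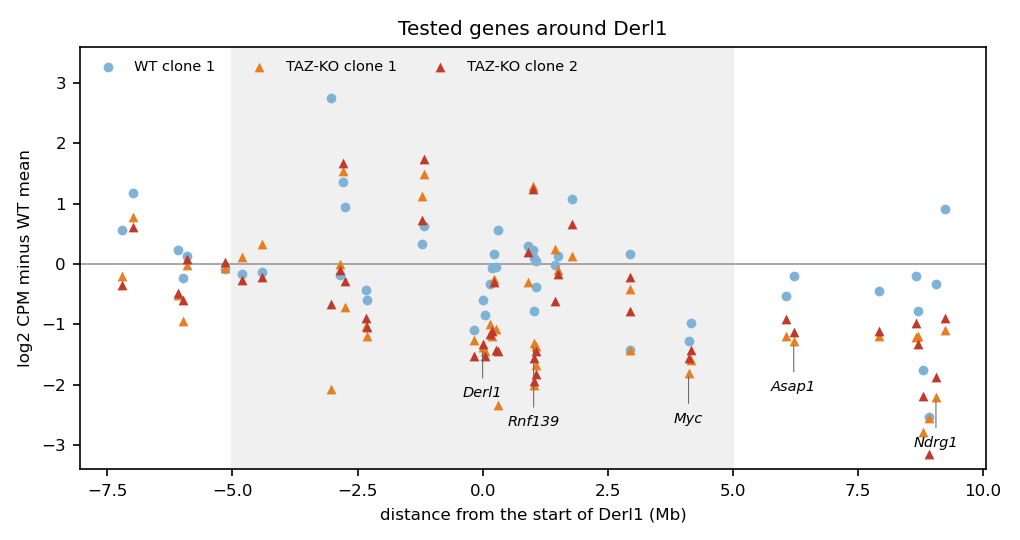
log2 level relative to the WT mean of the tested genes near Derl1 on chromosome 15, against the distance in Mb from the start of Derl1, in WT clone 1 and both TAZ-KO clones, with the window of 5 Mb on either side in grey. Within the window the medians are -0.04 in WT clone 1 and -1.02 and -0.72 in the TAZ-KO clones.

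The neighbours of every other member had a median log2 fold change nearer to 0 than those of Derl1. Hspa5 had 110 tested neighbours with medians of -0.38 and -0.33 in TAZ-KO clones 1 and 2, where Hspa5 itself was at -1.19 and -1.05, and 46.4% of them lay below every WT clone, against 18.6% of all tested genes. Chromosome 2 as a whole had medians of -0.28 and -0.31, and the other members on it, Pdia3, Dnajc10 and Edem2, had log2 fold changes of 0.69, 0.20 and -0.11. Chromosome 16 had a median of -0.60 in TAZ-KO clone 1 and -0.14 in TAZ-KO clone 2, and its members Sdf2l1 and Dnajb11 were both lower in TAZ-KO clone 1 than in TAZ-KO clone 2. The neighbours of Manf were at 0.13 and 0.36, with the higher value in TAZ-KO clone 2, as for Manf itself. Those of Atf6 were at 0.24 and 0.22, whereas Atf6 was at -1.22 and -0.43. The neighbours of Calr, Pdia6 and Creld2 had median log2 fold changes of -0.06, -0.02 and 0.05, and those of Hsp90b1 -0.11.

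Further genes of the same routes were counted beside the members, and none of these lists had a gene called by edgeR at an adjusted p of 0.05. Other ER folding enzymes had the sign of the chaperones, with 23 of 27 tested genes above 0, 4 below 0 and a median log2 fold change of 0.38. At an unadjusted p under 0.05, 5 were higher (18.5%, against 7.94% of all tested genes) and 1 was lower (3.70%, against 9.41%). Fkbp14, a prolyl isomerase of the ER, was at 6.24, 3.99 and 2.71 CPM in WT and 17.6 and 15.3 CPM in TAZ-KO (log2 fold change 1.93 (SE 0.40)). Dnajc1, a membrane-bound J protein, had a log2 fold change of 1.01 (SE 0.24), and Ero1lb, an oxidase that recharges the disulfide isomerases, one of 1.33 (SE 0.36), both without overlap. The related oxidase Ero1l had the opposite sign and was the lower gene counted above (log2 fold change -1.12, with overlap between the groups).

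Genes of N-glycosylation and of transport out of the ER had positive median fold changes. Of 21 glycosylation genes, 18 had a fold change above 0, with a median of 0.28, and 4 (19.0%, against 7.94% of all tested genes) were higher at an unadjusted p under 0.05 and none lower (against 9.41%). Both TAZ-KO clones were above every WT clone in 8 of them (38.1%, against 18.7%) and below in 1 (4.76%, against 18.6%), and 12 overlapped. They included the oligosaccharyltransferase subunit Ostc (0.71 (SE 0.21)), the cargo lectin Lman2 (0.55 (SE 0.19)) and the glycan-binding protein Mlec (0.77 (SE 0.27)). Of 27 genes of the COPII and COPI coats and the KDEL receptors, which carry cargo between ER and Golgi and return ER chaperones, both TAZ-KO clones were above every WT clone in 15 (55.6%, against 18.7% of all tested genes) and below in none (against 18.6%). At an unadjusted p under 0.05, 4 were higher (14.8%, against 7.94%) and none was lower (against 9.41%). The coat subunits Sec24d (1.06 (SE 0.27)) and Sec23a (0.83 (SE 0.23)) and the retrieval receptor Kdelr2 (0.56 (SE 0.21)) had the smallest p. The 19 other translocation and signal peptide genes had a median of 0.12, with 2 higher (10.5%, near the 7.94% of all tested genes) and none lower at an unadjusted p under 0.05, and the signal peptidase subunits Sec11c (1.08 (SE 0.31)) and Spcs3 (0.55 (SE 0.20)) lay above the WT range in both TAZ-KO clones.

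The other ERAD genes did not follow the chaperones. Of 31, 10 had a fold change above 0 and 21 below 0, with a median of -0.12, and 9 lay below every WT clone in both TAZ-KO clones (29.0%, against 18.6% of all tested genes) and 4 above (12.9%, against 18.7%). At an unadjusted p under 0.05, 1 was higher (3.23%, against 7.94%) and 5 were lower (16.1%, against 9.41%). Rnf139 was at 170.1, 152 and 153 CPM in WT and 63.5 and 53.8 CPM in TAZ-KO (edgeR adjusted p = 0.0892), and the ubiquitin ligase Rnf185 (-0.84 (SE 0.28)) and Tmub1 (-0.64 (SE 0.23)), a membrane protein of ERAD, were lower with no overlap. The 12 partners of ATF6 and XBP1 had a median of -0.09, with 1 higher (8.33%) and 2 lower (16.7%) at that p. Among them were Crebrf, a regulator of the CREB3 factors (log2 fold change -1.64 (SE 0.25), edgeR adjusted p = 0.0964), Wfs1, an ER membrane protein that restrains ATF6 (0.66 (SE 0.22)), and Yy1, a cofactor at the ERSE (-0.55 (SE 0.19)).

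The genes of the ATF4 and CHOP arm, which PERK starts, had the opposite sign to the chaperones. Of 18 tested genes, 17 had a fold change below 0, with a median of -1.42 on the log2 scale. At an unadjusted p under 0.05, 7 were lower (38.9%, against 9.41% of all tested genes) and none was higher (against 7.94%). The TAZ-KO values were both below the WT range in 5 (27.8%, against 18.6%), and the groups overlapped in the other 13. Cebpb, a transcription factor and a dimer partner of CHOP, was at 364, 290.4 and 295 CPM in WT and 94.7 and 80.3 CPM in TAZ-KO (log2 fold change -1.85 (SE 0.23), edgeR adjusted p = 0.0778). Ppp1r15a (GADD34), the phosphatase subunit that restarts translation, was at 34.7, 254 and 233 CPM in WT and 16.5 and 22.4 CPM in TAZ-KO. For Ppp1r15a, WT clone 1 was much nearer to the TAZ-KO clones than to the other WT clones. It was the WT clone nearest to the TAZ-KO mean in 14 of the 18 genes (77.8%, against 57.1% of all tested genes). Ddit4, a stress-induced inhibitor of mTORC1, had a log2 fold change of -0.95 (SE 0.29).

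The chaperones outside the ER did not share the direction of the members. Of 34 cytosolic and mitochondrial chaperones, 12 had a fold change above 0 and 22 below 0, with a median of -0.13, and none was higher at an unadjusted p under 0.05 (against 7.94% of all tested genes) while 3 were lower (8.82%, against 9.41%). Trap1, the mitochondrial HSP90, was at 110.2, 154 and 161 CPM in WT and 59.0 and 77.3 CPM in TAZ-KO (log2 fold change -1.06 (SE 0.26)), opposite in sign to its ER relative Hsp90b1. Trap1 lies on chromosome 16, which had medians of -0.60 and -0.14 in TAZ-KO clones 1 and 2, and the part of its position was not tested.

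**Figure D5:**
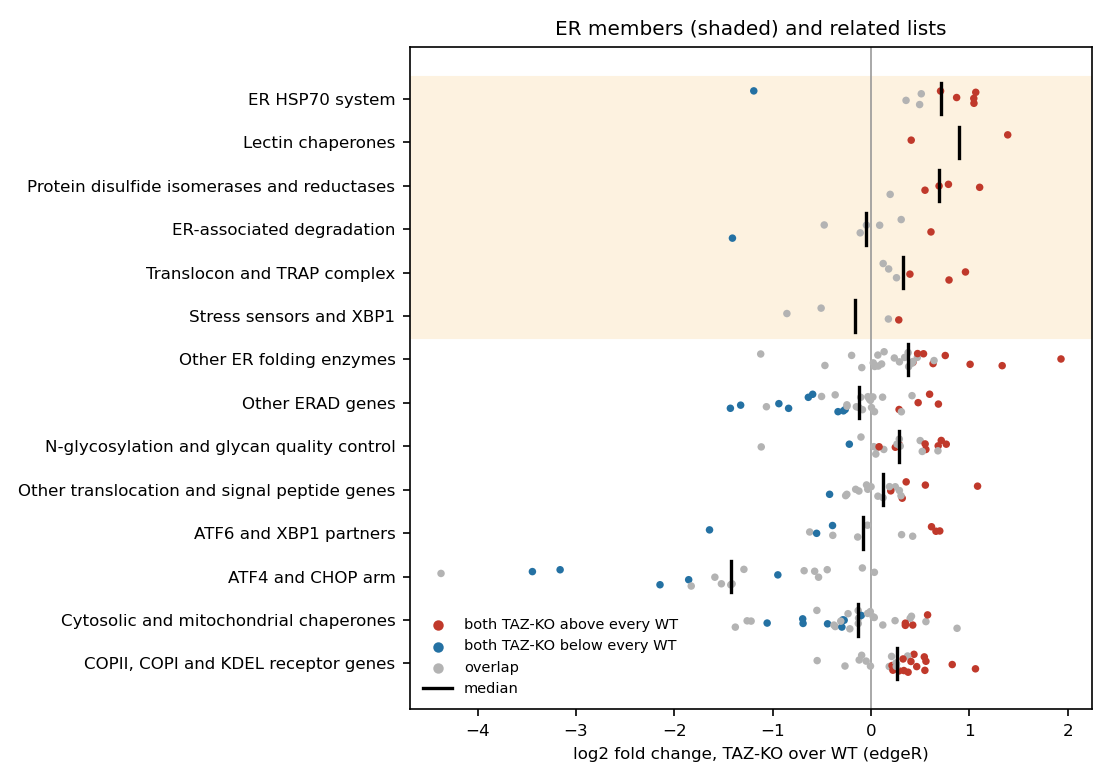
log2 fold change (TAZ-KO over WT, edgeR) of each tested gene in the 33 members (shaded, a row for each role) and the 8 other lists. A line marks the median of each row. Among the members it is 0.71 for the HSP70 system, 0.90 for lectin chaperones and 0.69 for disulfide isomerases. It is -0.05 for ERAD, 0.33 for the translocon and TRAP complex, and -0.16 for the sensors and Xbp1. The median of 0.40 over all 33 members is not drawn. Among the other lists it is 0.38 for other ER folding enzymes and -1.42 for the ATF4 and CHOP arm.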

How the data were processed

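RNA sequencing of 5 libraries of cultured 4T1 clones was used. According to the study's methods, the authors trimmed reads with cutadapt, aligned them with STAR to GRCm38 and counted them per gene in the UTAP pipeline. The methods also state that data from cultured cells were corrected for batch by surrogate variable analysis, without giving its terms. Here the main model held genotype alone, and a surrogate variable was an alternative. The labels name an mRNA protocol and the methods a barcoded 3' end protocol, and neither source states the counting tool or the use of strand (not given in the sources used here). Raw counts per gene, as deposited, were used here. The authors also deposited a normalised signal (counts divided by a size factor), regularised log2 values, and the fold changes, p-values and adjusted p-values of their own comparison, none of which was used.

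Counts were tested in R 4.3.3 with edgeR 4.0.16 (quasi-likelihood F-test, TMM, filterByExpr by group, a model of genotype alone) with Benjamini-Hochberg correction over 11975 genes, at an adjusted p of 0.05. SE is the log2 fold change over the square root of F. The replicates are separate clones according to the methods, but both TAZ-KO clones came from a single Cas9 clone and carry the same guide. The p-values thus cover the variation among these clones and not among separately founded knockouts. Without WT clone 1, the WT spread rests on WT clones 2 and 3 alone, which correlated at 0.99. Log2 levels relative to the WT mean are log2 CPM with a prior count of 2. Floors of 3 counts cover counting error only. Alternatives were DESeq2 1.42.0 as the test or for its size factors, limma-voom (limma 3.58.1), total counts, all listed genes without a filter, a minimum of 50 counts in 2 libraries, a replicate block, 1 surrogate variable (sva 3.50.0), each library left out, and adjusted p of 0.01 and 0.1. The fit was checked on simulated counts. Coordinates are from GENCODE (GRCm38) and promoters from RefSeq (GRCm38.p6). Of the 33 members, 6 share exon bases with another listed gene, 1 of them on the same strand.

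The members, lists and markers were chosen with earlier results of these data known, and the ratios to Hspa5 and the windows of 5 Mb after the values had been seen. All 33 members were named. Values of every library were given for Hspa5, the sensors, Xbp1 and each member with an unadjusted p under 0.05, and group ranges for the rest. From each other list, up to 3 genes were named, those with the smallest p among genes with an unadjusted p under 0.05 and no overlap between the groups. Wwtr1 was named as the target. Yap1, Krt19, Cldn7, Myc, Asap1, Ndrg1, Eif3h, Rad21, Ero1l, Zfp57 and Adcy3 were named after their values were seen. Protein sequences were not analysed here.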

Additional observations from a re-analysis of the deposited data

How the results depend on the processing

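Of 429 log2 fold changes of the members under alternatives, 393 kept their direction and their side of the threshold, 28 passed it only under the alternative and 8 changed sign, none of which had passed. These were Sel1l at 0.14 with the replicate block and at 0.25 with 1 surrogate variable, Herpud1 at 0.34 and Dnajc10 at -0.012 with 1 surrogate variable, and 4 members when a library was left out. With a library left out, Sel1l ranged from -0.20 (without WT replicate 1) to 0.12 (without WT replicate 3), Edem2 from -0.26 to 0.044 and Derl2 from 0.19 to -0.0092 (without TAZ-KO replicates 2 and 1), and Ssr3 from 0.33 to -0.091 (without TAZ-KO replicates 1 and 2). The other 27 members kept their sign under every alternative run. Over all genes, 10 were called with no low-count filter, 690 by DESeq2, 499 with 1 surrogate variable, 0 with the replicate block (898 at an unadjusted p under 0.05), 0 at an adjusted p of 0.01 and 54 at 0.1, and 0 to 4598 with a library left out, the highest without WT replicate 1 and 0 without each other library (852 to 1063 at an unadjusted p under 0.05). Among the members, DESeq2 called 5, the fit with 1 surrogate variable 3, the other alternatives with all libraries 0, and the fits with a library left out 0 to 20, the highest without WT replicate 1. In edgeR, 14 members had an unadjusted p under 0.05, against 4 with the replicate block. For the replicate numbers shared by the groups (2 of them), the deviations of same-numbered clones correlated at -0.12 and -0.12. With 2 TAZ-KO clones, their deviations from the group mean mirror each other. These correlations therefore cannot show whether the numbers pair the samples. Where 1 TAZ-KO clone was left, it was assumed to vary like the WT clones. The cause of these differences was not tested. With 3 clones against 2, and with WT clone 1 apart from the others, the tests rest on few clones, and depth limits Sec61g most.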
